A study of Mus musculus with 9 samples.

Results

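Macrophages recognize lipopolysaccharide (LPS) through a receptor complex at the cell surface, and the transcripts of 10 genes of this complex, of its homolog RP105 and of their adaptors were examined here. They are Tlr4, Ly96, Cd14, Cd180, Ly86, Myd88, Ticam1, Ticam2, Irak1 and Traf6. The genes were selected by symbol as named components of the pathway, with their values in the groups of this study already known. The levels and differences of these 10 genes are therefore given as a description, with no p-value for a single gene, and counts of calls among them stand only beside the share of all genes. All 10 had a value among the 28137 genes of the table, and all 10 passed the filter on low values in both comparisons.

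TLR4 binds LPS together with its co-receptor MD-2, the product of Ly96, and CD14 hands LPS to this pair. RP105, the product of Cd180, is a TLR4 homolog without a signaling domain that pairs with MD-1, the product of Ly86, and in macrophages it restrains TLR4 signaling. From the receptor, one arm runs through MYD88, IRAK kinases and the ubiquitin ligase TRAF6 to NF-kB and MAP kinases, and the other runs through TRAM and TRIF, the products of Ticam2 and Ticam1, to the interferon response.

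The values came from RNA-seq of 9 libraries of RAW264.7 cells, a virus-transformed mouse macrophage line, with 3 libraries in each of 3 groups. The groups received control siRNA (NC siRNA), siRNA against SFRP2 or siRNA against RAB6A, each at 60 nM for 6 h. According to the labels, all of them were then kept in complete medium for 12 h and treated with LPS (100 ng/ml) for 24 h. No group without LPS was analysed here, so every value describes cells that had already met LPS, and the cells are a single line in which nothing says that libraries of a group came from separate cultures. The study's methods differ from the labels in siRNA dose, transfection reagent and time in medium and also name IFN-γ. The titles of the SFRP2 siRNA libraries number them siRNA-1 to siRNA-3, which leaves unstated whether each had its own siRNA. All 9 titles also end in 6H, without saying whether this is the time of transfection or another time.

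Depth ranged from 32758729 to 47149258 reads per library, as recovered from the FPKM values (fragments scaled to exon length and library size, so that levels can be compared between genes). Rab6a had 25.7 ± 1.48 FPKM (SD, n = 3) with NC siRNA and 20.8 ± 0.445 FPKM with RAB6A siRNA. Its RAB6A libraries lay below all NC libraries, as did those of 38.2% of all genes tested. The log2 fold change of Rab6a was -0.31 (SE 0.06), and 4489 of the 12712 genes tested had a lower one. The values of Rab6a were thus a weak check of its siRNA. Sfrp2 had 2 to 4 reads in every library and gave no check of its siRNA. The summed level of 7 macrophage markers ran from 2943 to 3237 FPKM with NC siRNA, from 2592 to 2855 with SFRP2 siRNA and from 2014 to 2162 with RAB6A siRNA. With RAB6A siRNA, Csf1r, the receptor for macrophage colony-stimulating factor, Lyz2, Fcgr1 and the transcription factor gene Spi1 lay below all NC libraries. Adgre1, Itgam and Cd68 overlapped with NC. With SFRP2 siRNA, Adgre1, Cd68, Fcgr1 and Spi1 lay below all NC libraries, as 13.9% of all genes tested did, and Csf1r, Lyz2 and Itgam overlapped. Adgre1, which encodes F4/80, had 56.3 ± 1.61 FPKM (SD, n = 3) with NC siRNA and 56.3 ± 2.62 FPKM with RAB6A siRNA. Lyz2, the lysozyme gene, ran from 850 to 898 FPKM with NC siRNA and from 196 to 239 FPKM with RAB6A siRNA. In bulk RNA, fewer cells of a type and less RNA per cell cannot be told apart. Marker sums stayed at or below 0.578 FPKM for B cells (4 of 5 markers with a value), 0.117 for T cells (3 of 4), 2.90 for fibroblasts and 1.63 for epithelial cells. The epithelial sum was 0.875 to 1.63 FPKM with RAB6A siRNA and 0.255 to 0.745 with NC siRNA. The part of these marker shifts in the results that follow was not tested.

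Promoter sequences were available for 6 of the 10 genes from RefSeq (GRCm38.p6), and the printed ones belong to the gene with the largest difference (Cd180), its partner (Ly86) and the adaptor with the next largest difference (Myd88). Each is the part of the 250 bases before the RefSeq start that lies outside the exons of GENCODE M21, written 5′ to 3′ on the strand of the gene, with motif matches in capitals. Cd180 is read from chr13:102693297-102693546 on the + strand, Ly86 from chr13:37345095-37345207 on the + strand and Myd88 from chr9:119340042-119340268 on the - strand. The Myd88 stretch also lies in an intron of a longer annotated Myd88 transcript.
Cd180: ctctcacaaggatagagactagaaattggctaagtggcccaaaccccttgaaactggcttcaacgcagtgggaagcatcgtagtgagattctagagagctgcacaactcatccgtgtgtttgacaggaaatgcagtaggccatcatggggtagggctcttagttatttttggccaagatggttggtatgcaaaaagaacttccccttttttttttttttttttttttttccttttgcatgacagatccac
Ly86: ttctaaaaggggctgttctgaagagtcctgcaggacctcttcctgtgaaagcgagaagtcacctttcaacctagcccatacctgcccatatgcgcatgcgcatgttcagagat
Myd88: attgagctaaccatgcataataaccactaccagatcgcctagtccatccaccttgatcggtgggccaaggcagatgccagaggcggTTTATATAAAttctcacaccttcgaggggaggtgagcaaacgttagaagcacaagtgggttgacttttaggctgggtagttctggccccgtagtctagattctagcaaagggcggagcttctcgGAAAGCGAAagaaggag

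In Myd88 the capitals mark a match to GAAANNGAA, the core of an interferon-stimulated response element, 40 to 32 bases before the RefSeq start, and a TATAAA box whose matches on both strands overlap. The 6 promoters were searched on both strands, over their whole 250 bases, for GAGGAAGT (PU.1), GAAANNGAA, GGGNNTTTC and GGGNNTTCC (NF-kB), TGANTCA (AP-1), TGACGTCA (CRE) and TATAAA. Of 32851 RefSeq promoters, these letters were found in 2.44%, 7.13%, 3.72%, 4.98%, 6.75%, 1.55% and 12.4%, respectively. Ly86 had 1 match, to GGGNNTTTC, 93 to 85 bases before its RefSeq start and inside an annotated exon, so it is not part of the printed stretch. No match was found in the windows of Cd180, Traf6, Ticam1 and Irak1. The Cd180 window was also low in GC (42.8%) and held 3 CpG dinucleotides, against 50.0% and 11 for Ly86, 51.2% and 9 for Myd88, and medians of 52.4% and 6 over all promoters.

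With RAB6A siRNA, 7 of the 10 transcripts (Tlr4, Ly96, Cd180, Myd88, Ticam1, Ticam2 and Traf6) had values below those of every NC library, Cd14 had slightly higher values, and Ly86 and Irak1 overlapped with NC. The median log2 fold change of the 10 genes was -0.56, against 0.03 over the 12712 genes tested. RAB6A siRNA was accompanied by differences across the whole transcriptome. Of all genes tested, 39.2% lay above all NC libraries and 38.2% below. At an adjusted p under 0.05 (limma, Benjamini-Hochberg), 37.6% of all genes were higher and 36.5% lower, and of the 10 genes 0 and 7 were. Under the stricter call that also asks for an absolute log2 fold change over 1, 17.3% of all genes were higher and 12.8% lower, and of the 10 genes 0 and 3 were, namely Cd180, Myd88 and Ticam2. Ticam2 lay just inside this fold threshold and Ly96 just outside. Because the genes were chosen with these values known, nothing is read from these shares.

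**Figure D1:**
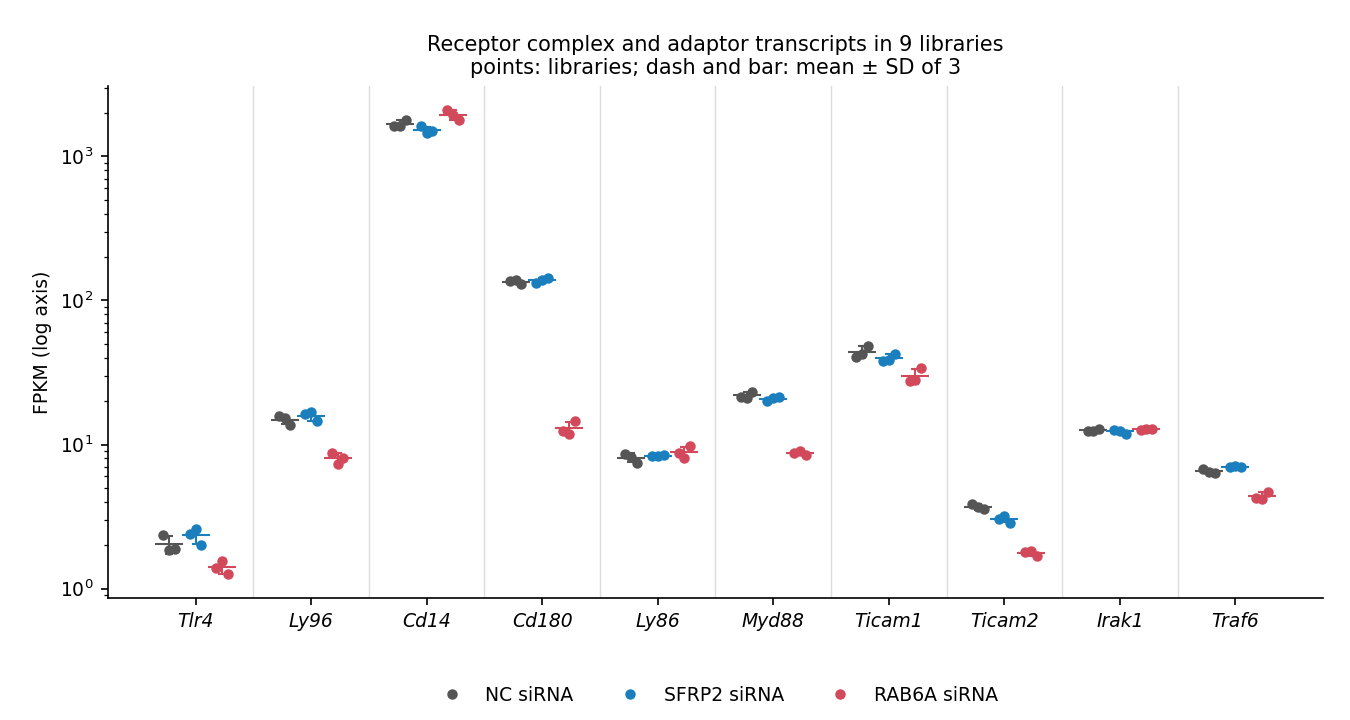
FPKM (log axis) of the 10 transcripts in each of the 9 libraries, grouped by NC, SFRP2 and RAB6A siRNA; points are libraries, and the dash and bar are the mean ± SD of 3. Cd14 runs from 1443 to 2107 FPKM, and Cd180 lies at 131 to 138 FPKM with NC siRNA and at 11.9 to 14.6 FPKM with RAB6A siRNA.

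The levels of the 10 transcripts in NC cells covered close to 3 orders of magnitude. By mean FPKM among 11979 genes, Cd14 had rank 18, Cd180 rank 278, Ticam1 rank 1044, Myd88 rank 2088, Ly96 rank 3048 and Irak1 rank 3425. Ly86 had rank 4779, Traf6 rank 5480, Ticam2 rank 7378 and Tlr4, the receptor itself, rank 9044. Thus the accessory molecule Cd14 was the most abundant and the receptor the least abundant. Cd14 alone made up 87.1% ± 0.668 (SD, n = 3) of the summed FPKM of the 10 genes with NC siRNA and 95.6% ± 0.575 with RAB6A siRNA. The sum of the other 9 was 249 ± 0.777 FPKM with NC siRNA, 247 ± 7.16 with SFRP2 siRNA and 88.8 ± 5.77 with RAB6A siRNA.

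Tlr4, the signaling receptor (ENSMUSG00000039005), had 2.37, 1.85 and 1.88 FPKM in the 3 NC libraries and 1.40, 1.56 and 1.26 FPKM in the 3 RAB6A libraries. All 3 RAB6A values lay below the lowest NC value. The log2 fold change, on the scale of log2(FPKM + 0.1), which understates the change of low genes, was -0.50 (SE 0.14). These levels rest on 229 to 548 reads per library. The spread between NC libraries (coefficient of variation 14.3%) was wider than the 4.50% that counting gives if every recovered read is independent. Over the 16 alternatives the log2 fold change ran from -0.74 (quantile normalization) to -0.33 (pseudocount of 1).

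Ly96, which encodes the LPS-binding co-receptor MD-2, had 15.7, 15.2 and 13.8 FPKM with NC siRNA and 8.79, 7.30 and 8.04 FPKM with RAB6A siRNA. The groups were far apart relative to their spread, at 14.9 ± 1.00 and 8.04 ± 0.742 FPKM (SD, n = 3). The log2 fold change was -0.88 (SE 0.09). Over the 16 alternatives it ran from -1.42, when GC content and exon length were corrected for, to -0.80 after quantile normalization. Ly96 has the shortest exon model of the 10 genes, with 1021 bases. The receptor and its co-receptor were both lower, and Ly96 was 7.37 ± 0.797 times Tlr4 in FPKM with NC siRNA and 5.78 ± 0.956 times with RAB6A siRNA, with no overlap between the groups.

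Cd14, the LPS transfer protein, stood out from the other receptor genes in direction. It had 1621, 1620 and 1795 FPKM with NC siRNA and 2107, 1928 and 1795 FPKM with RAB6A siRNA. The lowest RAB6A library and the highest NC library were equal to the nearest FPKM, so the groups only touched. The log2 fold change was 0.21 (SE 0.09), and it was 0.02 after correction for GC content and gene length. These values rest on 101841 to 132633 reads per library. The ratio of Cd14 to Tlr4 was 684 to 953 in the NC libraries and 1235 to 1503 in the RAB6A libraries.

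Cd180, which encodes RP105, showed the largest difference among the 10 genes. It had 136, 138 and 131 FPKM with NC siRNA and 12.5, 11.9 and 14.6 FPKM with RAB6A siRNA. The mean was 10.4-fold lower with RAB6A siRNA, far outside the spread of either group, with a log2 fold change of -3.38 (SE 0.08). Of the 12712 genes tested, 24 had a lower log2 fold change. Even the low values rest on 2032 to 2152 reads per library. Cd180 shares 182 exon bases with Mast4 on the opposite strand, and it is not given here whether reads were counted by strand. Mast4 was at 0.325 to 0.473 FPKM in these 6 libraries.

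Ly86, which encodes the RP105 partner MD-1, did not follow Cd180. Its values were 8.65, 8.14 and 7.49 FPKM with NC siRNA and 8.70, 8.07 and 9.72 FPKM with RAB6A siRNA. The groups overlapped, and the log2 fold change was 0.12 (SE 0.09), or 0.34 after correction for GC content and gene length. Cd180 was 16.7 ± 0.874 times Ly86 in FPKM with NC siRNA and 1.47 ± 0.0345 times with RAB6A siRNA. Among the RAB6A libraries this ratio ran only from 1.43 to 1.50. The MD-2 transcript was 1.84 ± 0.0270 times the MD-1 transcript with NC siRNA and 0.914 ± 0.0909 times with RAB6A siRNA.

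**Figure D2:**
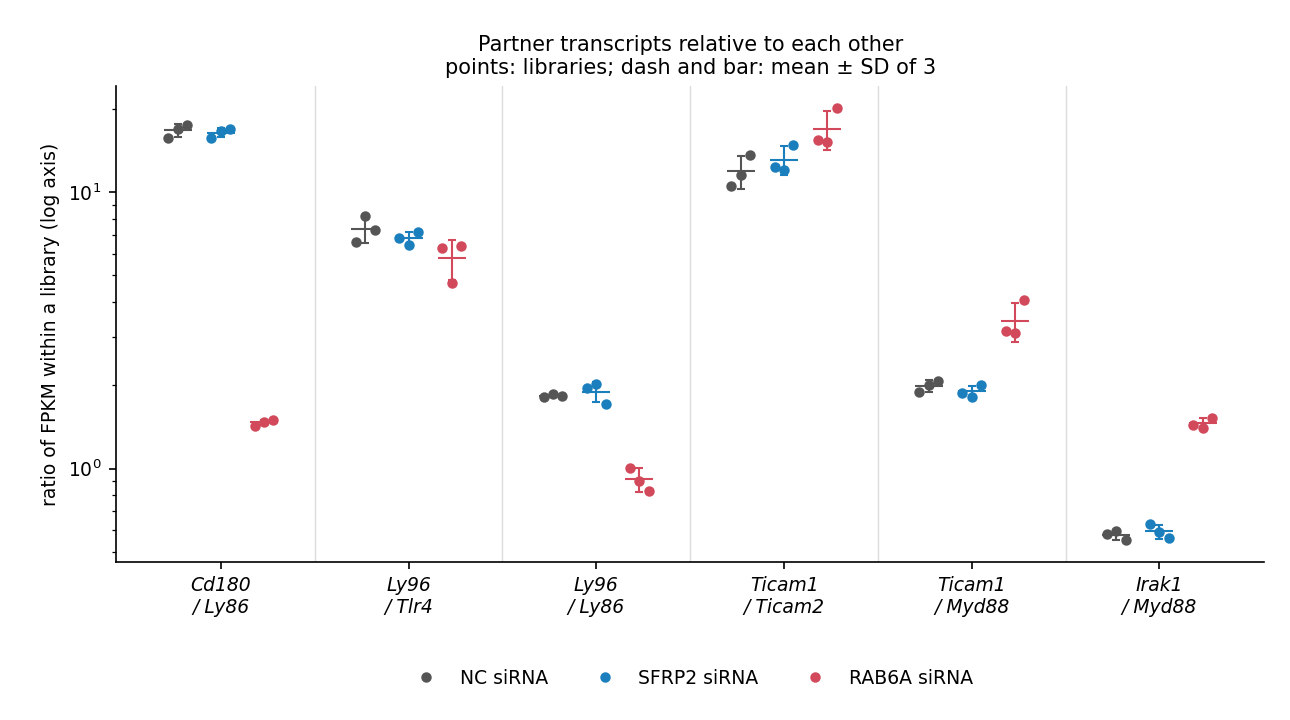
Ratio of FPKM between partner transcripts within each library (log axis), by siRNA group; points are libraries, and the dash and bar are the mean ± SD of 3. The ratio of Cd180 to Ly86 is 15.8 to 17.5 in the NC libraries and 1.43 to 1.50 in the RAB6A libraries, and the ratio of Irak1 to Myd88 is 0.552 to 0.593 in the NC libraries and 1.41 to 1.53 in the RAB6A libraries.

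Among the adaptors, Myd88 differed most. Its values were 21.5, 21.1 and 23.3 FPKM with NC siRNA and 8.79, 9.04 and 8.41 FPKM with RAB6A siRNA. The mean was 2.51-fold lower, with a log2 fold change of -1.32 (SE 0.06) and no overlap. Myd88 shares 290 exon bases with Acaa1a on the opposite strand. Acaa1a had 4.57 to 6.13 FPKM with NC siRNA and 5.68 to 9.06 FPKM with RAB6A siRNA, so the mean of the overlapping gene was higher where Myd88 was lower.

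Both adaptors of the TRIF arm were lower as well. Ticam1, which encodes TRIF, had 40.5, 42.4 and 48.5 FPKM with NC siRNA and 27.6, 27.9 and 34.1 FPKM with RAB6A siRNA, with a log2 fold change of -0.55 (SE 0.10). Ticam2, which encodes the bridging adaptor TRAM, had 3.86, 3.67 and 3.54 FPKM with NC siRNA and 1.78, 1.83 and 1.69 FPKM with RAB6A siRNA. Neither pair of groups overlapped. The log2 fold change of Ticam2 was -1.02 (SE 0.08), and -0.76 with a pseudocount of 1, which weighs on low genes. Ticam2 shares 838 exon bases with Tmed7 on the same strand, and Tmed7 was higher with RAB6A siRNA (24.4 to 27.2 FPKM) than with NC siRNA (12.9 to 15.5 FPKM).

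The adaptors thus did not keep their proportions. The ratio of Ticam1 to Myd88 was 1.99 ± 0.0973 (SD, n = 3) with NC siRNA and 3.43 ± 0.547 with RAB6A siRNA, without overlap. The ratio of Ticam1 to Ticam2 was 10.5 to 13.7 in the NC libraries and 15.2 to 20.2 in the RAB6A libraries.

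Below MYD88, the kinase gene Irak1 was level across groups. It had 12.4, 12.5 and 12.9 FPKM with NC siRNA and 12.7, 12.7 and 12.8 FPKM with RAB6A siRNA. The log2 fold change was 0.02 (SE 0.05), and its sign depended on the scaling, from -0.04 with voom on the recovered reads to 0.09 after quantile normalization. Irak1 was also the steadiest of the 10 transcripts in the NC and RAB6A groups, with coefficients of variation of 1.81% and 0.699%. Both lay below the 1.96% and 2.16% that counting gives if every recovered read is independent. The ratio of Irak1 to Myd88 was 0.575 ± 0.0209 with NC siRNA and 1.46 ± 0.0614 with RAB6A siRNA.

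Traf6, the ubiquitin ligase that IRAK1 engages, had 6.72, 6.45 and 6.39 FPKM with NC siRNA and 4.24, 4.21 and 4.69 FPKM with RAB6A siRNA. All RAB6A values were below all NC values, with a log2 fold change of -0.56 (SE 0.07). After correction for GC content and gene length it was -0.39. The ratio of Irak1 to Traf6 was 1.93 ± 0.0810 with NC siRNA and 2.91 ± 0.154 with RAB6A siRNA.

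**Figure D3:**
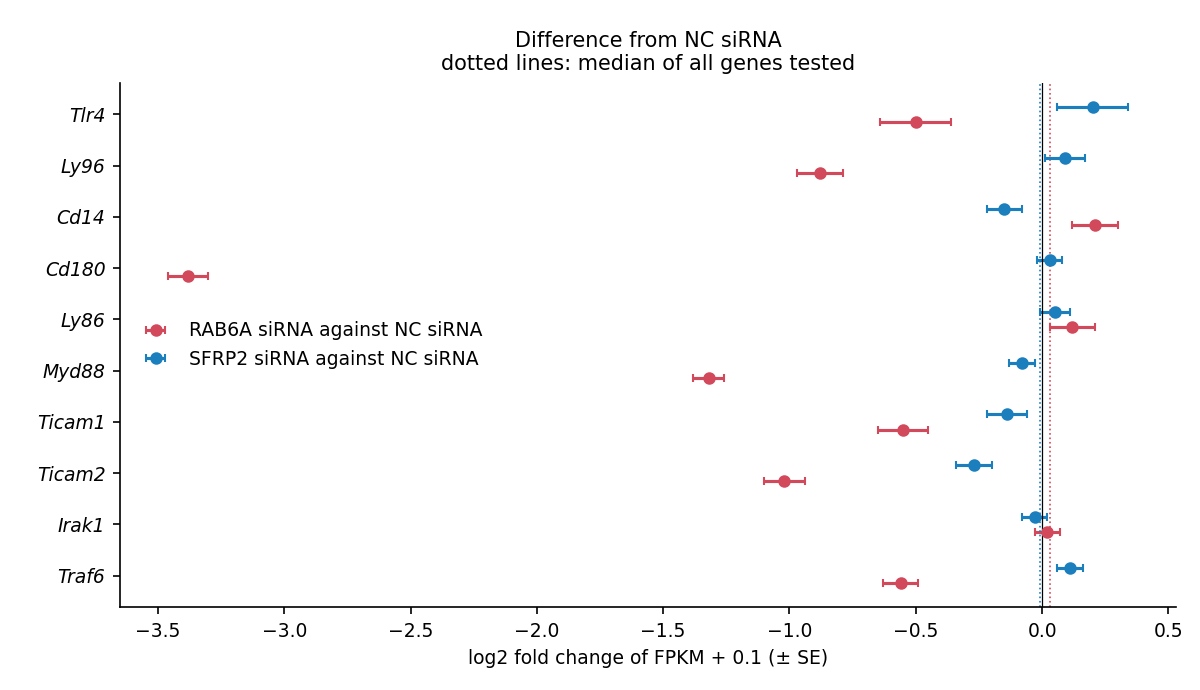
Log2 fold change against NC siRNA (log2 of FPKM + 0.1, ± SE from limma) of each transcript for RAB6A siRNA (red) and SFRP2 siRNA (blue); dotted lines mark the median of all genes tested. Cd180 at -3.38, Myd88 at -1.32 and Ticam2 at -1.02 stand farthest from 0 with RAB6A siRNA, while the SFRP2 values run from -0.27 to 0.20.

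With SFRP2 siRNA the 10 transcripts stayed close to NC. Their log2 fold changes ran from -0.27 to 0.20, and their median was -0.0036, against -0.012 over the 12017 genes tested. By limma 0% of all genes and 0 of the 10 genes had an adjusted p under 0.05, and voom on the recovered reads called 104 genes and 0 of the 10. At an unadjusted p under 0.05 the shares were 18.5% of all genes and 1 of the 10 genes, Ticam2. In 10.9% of all genes the SFRP2 libraries lay above all NC libraries, as in 1 of the 10 (Traf6), and in 13.9% below, as in 2 (Cd14 and Ticam2). Both comparisons use the same NC libraries. The study used DESeq2, a method for read counts, and reported differentially expressed genes for SFRP2 siRNA in RAW264.7 cells given LPS and IFN-γ. DESeq2 was not run here.

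Ticam2 had 3.06, 3.18 and 2.87 FPKM with SFRP2 siRNA, all below the lowest NC value of 3.54 and above the highest RAB6A value of 1.83. The 3 groups thus formed 3 separate levels, with a log2 fold change of -0.27 (SE 0.07) for SFRP2 siRNA against NC. Traf6 had 6.996, 7.06 and 7.02 FPKM, a log2 fold change of 0.11 (SE 0.05). Their coefficient of variation, 0.437%, was narrower than the 2.18% that counting gives if every recovered read is independent. Cd14 had 1611, 1443 and 1496 FPKM, a log2 fold change of -0.15 (SE 0.07), and -0.01 after quantile normalization. Its order was SFRP2, NC and RAB6A siRNA from low to high.

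The other 7 transcripts overlapped between SFRP2 and NC siRNA. Tlr4 had 2.40, 2.61 and 2.02 FPKM with SFRP2 siRNA (log2 fold change 0.20, SE 0.14), and Ticam1 had 37.8, 38.3 and 42.7 FPKM (-0.14, SE 0.08). Ly96, Cd180, Ly86, Myd88 and Irak1 differed by at most 0.09 on the log2 scale, and Ly96, Cd180, Myd88 and Irak1 changed sign after correction for GC content and gene length. Over 11903 genes, the log2 fold change of this comparison was related to GC content (Spearman's rho -0.498, across genes, which are not independent replicates). The partner ratios were also close to NC, with Cd180 at 16.5 ± 0.664 times Ly86 and Irak1 at 0.593 ± 0.0343 times Myd88.

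The other genes of the pathway were followed with a list of 42 genes in 6 roles, together with 13 target genes, none of which belongs to the 10 genes. They too were chosen with earlier results of these data known, and some are named after their values were seen. Their p-values therefore serve as a description. With RAB6A siRNA, 38 of the 42 passed the filter, and 10 of these rose and 18 fell at an adjusted p under 0.05 (limma), while 10 did not pass. These shares, 26.3% and 47.4%, stand beside 37.6% and 36.5% of all genes tested. Lbp, Sarm1, Peli2 and Peli3 were too low to be tested. Of the 13 targets, 4 rose, 6 fell and 3 did not pass.

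**Figure D4:**
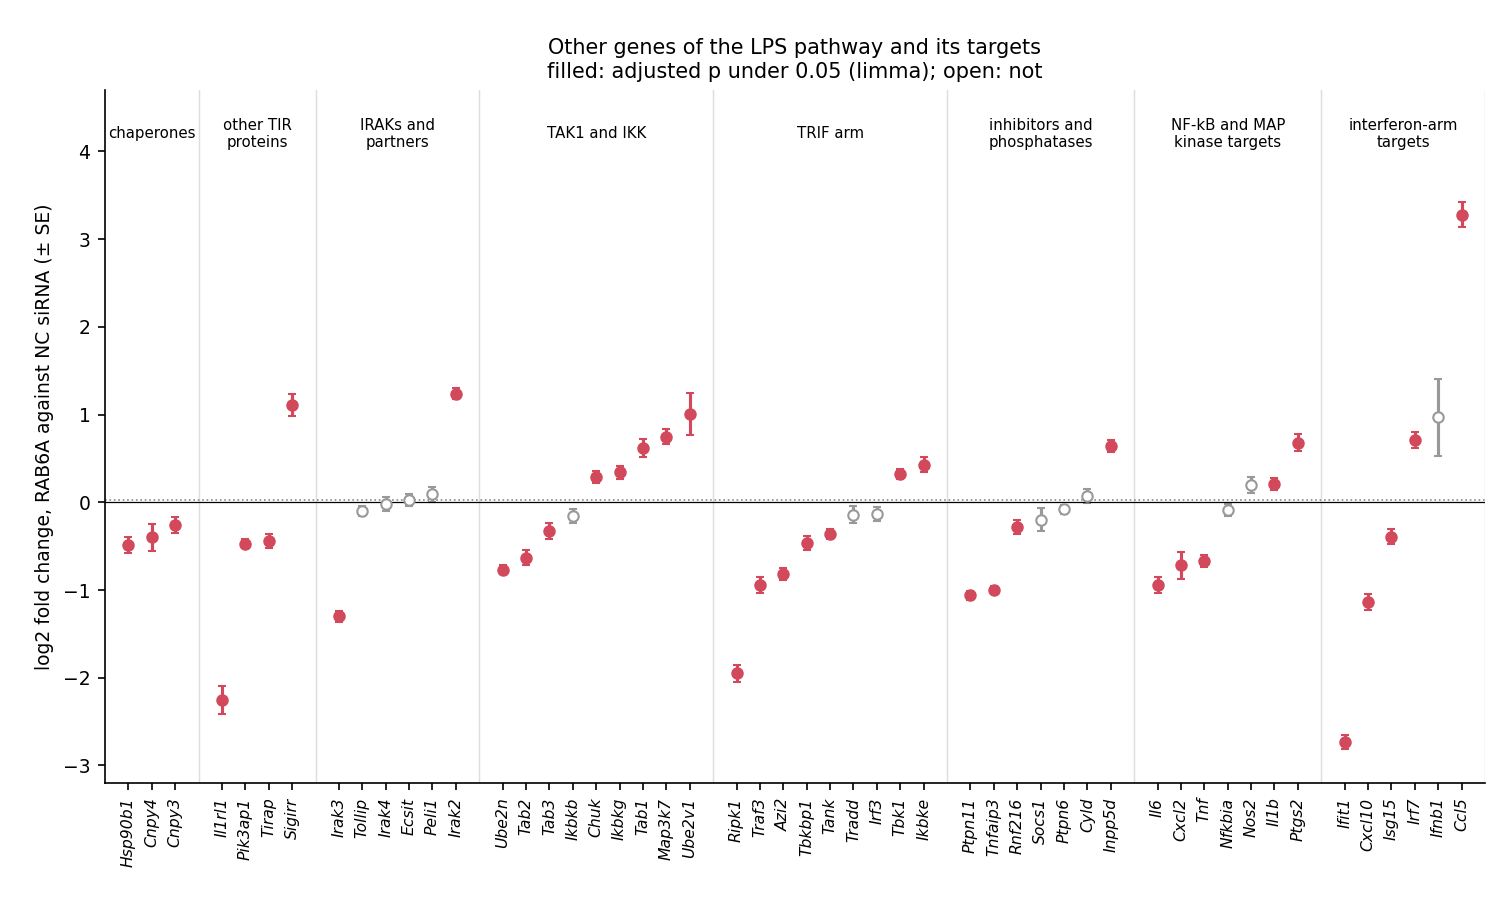
Log2 fold change (± SE) for RAB6A against NC siRNA of the 38 pathway genes and 13 target genes tested, by role; filled points passed at an adjusted p under 0.05 (limma), open points did not, and the dotted line is the median of all genes tested. The points run from -2.73 (Ifit1) to 3.28 (Ccl5), and every role but the chaperones holds genes in both directions.

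All 3 chaperone genes tested fell at an adjusted p under 0.05 (limma), as 36.5% of all genes did. Cnpy4, whose groups overlapped, had a log2 fold change of -0.40 (SE 0.15, adjusted p = 0.041 by limma). Hsp90b1, which encodes gp96, the endoplasmic reticulum chaperone that folds Toll-like receptors, had a log2 fold change of -0.49 (SE 0.09, adjusted p = 0.002 by limma), the lowest of the role. Cnpy3, its co-chaperone for these receptors, had the highest, -0.26 (SE 0.09, adjusted p = 0.028). The receptor transcript Tlr4 was lower in the same libraries, and a link with the chaperone genes was not tested.

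Of the other TIR domain proteins, Tirap, Pik3ap1 and Il1rl1 fell and Sigirr rose. Il1rl1, which encodes the IL-33 receptor ST2, went from 5.85 ± 0.561 to 1.17 ± 0.250 FPKM (log2 fold change -2.25, SE 0.16, adjusted p = 1.1e-05 by limma). Sigirr, an inhibitory receptor of the same family, went from 1.31 ± 0.180 to 2.93 ± 0.240 FPKM (1.11, SE 0.13, adjusted p = 1.3e-04). Tirap, the bridging adaptor for MYD88, fell by 0.44 on the log2 scale (SE 0.08, adjusted p = 0.0022).

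The IRAK genes moved apart while Irak1 was level. Irak2, a kinase-like partner that sustains signaling, went from 17.8 ± 0.536 to 42.1 ± 1.82 FPKM (log2 fold change 1.24, SE 0.06, adjusted p = 2.4e-06 by limma). Irak3, which encodes IRAK-M, an inhibitor of the pathway, went from 21.6 ± 0.643 to 8.75 ± 0.359 FPKM (-1.30, SE 0.06, adjusted p = 2.3e-06). Relative to Irak1 in the same library, Irak2 was at 1.41 ± 0.0637 with NC siRNA and 3.30 ± 0.162 with RAB6A siRNA, and Irak3 at 1.72 ± 0.0269 and 0.687 ± 0.0295. The other 4 genes of the role that were tested, Irak4, Tollip, Peli1 and Ecsit, did not pass (log2 fold changes from -0.10 to 0.09).

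Among the 9 genes of the TAK1 and IKK complexes, 5 rose and 3 fell. Map3k7, which encodes TAK1, rose by 0.75 (SE 0.08, adjusted p = 9.2e-05 by limma), and Ube2n, the ubiquitin-conjugating enzyme that works with TRAF6, fell by 0.77 on the log2 scale (SE 0.05, adjusted p = 1.2e-05), the lowest of the role. Ube2v1, the partner subunit of that enzyme, had the highest value (1.01, SE 0.24, adjusted p = 0.0061). It rests on 41 to 118 reads per library, and its log2 fold change after quantile normalization was 0.50 with an adjusted p of 0.075.

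In the TRIF arm, 5 of 9 genes fell and 2 rose. Ripk1, a kinase that binds TRIF, fell from 10.9 ± 0.655 to 2.76 ± 0.319 FPKM (log2 fold change -1.95, SE 0.10, adjusted p = 3.0e-06 by limma). Traf3, a ubiquitin ligase of this arm, had a log2 fold change of -0.94 (SE 0.09, adjusted p = 4.8e-05). The kinase genes Tbk1 and Ikbke rose, and Ikbke had the highest value (0.43, SE 0.09, adjusted p = 0.0027). Irf3, the transcription factor at the end of the arm, was at -0.13 (SE 0.08) and did not pass.

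Of 7 inhibitors and phosphatases, 3 fell and 1 rose. Ptpn11, which encodes the phosphatase SHP2, had the lowest value (log2 fold change -1.06, SE 0.05, adjusted p = 3.2e-06 by limma). Tnfaip3, which encodes the deubiquitinase A20, fell from 19.2 ± 0.437 to 9.56 ± 0.105 FPKM (adjusted p = 3.8e-06). Inpp5d, the lipid phosphatase SHIP1, had the highest (0.64, SE 0.07, adjusted p = 1.2e-04).

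The targets split within each arm. Of the NF-kB and MAP kinase targets, Tnf, Il6 and Cxcl2 fell and Il1b and Ptgs2 rose, between -0.94 (Il6, SE 0.09, adjusted p = 6.4e-05 by limma) and 0.68 (Ptgs2, SE 0.10, adjusted p = 4.2e-04). Of the interferon-arm targets, Ccl5 rose from 159 ± 14.9 to 1558 ± 274 FPKM (log2 fold change 3.28, SE 0.14, adjusted p = 1.9e-06). Ifit1 fell from 38.7 ± 1.11 to 5.77 ± 0.632 FPKM (-2.73, SE 0.08, adjusted p = 9.9e-07), and Cxcl10 fell from 104 ± 3.85 to 47.2 ± 5.30 FPKM (-1.14, SE 0.09, adjusted p = 1.8e-05). Ifnb1 was at 0.443 ± 0.225 FPKM with NC siRNA and 0.947 ± 0.390 FPKM with RAB6A siRNA and did not pass (adjusted p = 0.079).

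With SFRP2 siRNA, 0 of 37 pathway genes and 0 of 12 targets tested passed at an adjusted p under 0.05 by limma. At an unadjusted p under 0.05 were 6 of the 37 pathway genes and 6 of the 12 targets, beside 18.5% of all genes. Because the targets were chosen with earlier results of these data known, nothing is read from these shares. All 5 interferon-arm targets tested were among those 6 targets and lay below all NC libraries, as 13.9% of all genes did. With voom on the recovered reads 2 targets passed, Ccl5 and Isg15. By limma, Ccl5 was at 115 ± 9.38 FPKM, a log2 fold change of -0.46 (SE 0.09, adjusted p = 0.16), opposite in sign to its change with RAB6A siRNA. Ifit1, Cxcl10, Isg15 and Irf7 had log2 fold changes from -0.25 to -0.13.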

How the data were processed

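RNA-seq of 9 libraries of RAW264.7 cells was analysed from the FPKM values that the authors deposited per gene and library. The submitters' processing notes name HISAT2, Subread and featureCounts without a version, and the genome build, annotation and strand setting are not given in the sources used here. Of 28137 Ensembl identifiers, 27533 were named from GENCODE M21. FPKM multiplied by exon length was a whole number of reads within 0.03 in all libraries for 98.4% of them, and these reads gave the depth, the counting error and an alternative with voom.

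Groups were taken from the labels. RAB6A siRNA and SFRP2 siRNA were each compared with NC siRNA by limma 3.58.1 in R 4.3.3 on log2(FPKM + 0.1), with an intensity trend, over genes with a mean of at least 0.5 FPKM and Benjamini-Hochberg adjustment over all of them. P-values measure the spread between these libraries, which may be technical. DEGs were also asked for an absolute log2 fold change over 1. The fit and the recovery of reads were tested on simulated data. For the fit, only a small set of genes was changed. That setting cannot speak to a comparison in which most genes differ, as with RAB6A siRNA. The counting error is that of a Poisson count, takes every recovered read as independent and covers counting only. The low genes Ifnb1 and Peli3 had even reads in every library. Whether both mates of a pair were counted is not given. If they were, the counting error is larger than stated and the fragments are fewer than the reads.

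The 10 genes, the other pathway genes, the targets and the markers were chosen with earlier results of these data known. Of the pathway and target genes, those called as DEGs and the highest and lowest of each role were named, and some others after their values were seen. Alternatives were the pseudocount, the filter, median-of-ratios scaling, quantile normalization, a block for the replicate number, 1 fit over the 9 libraries, voom, a correction for GC content and length (splines with 5 degrees of freedom) and each library left out.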

Additional observations from a re-analysis of the deposited data

How the results depend on the processing

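All 16 alternatives kept the 7 lower transcripts lower with RAB6A siRNA. None of the 10 passed as higher by the main fit, but 1 did with quantile normalization and 1 without RAB6A replicate 3 (Cd14 in both) and 1 with the correction for GC content and length (Ly86). The cause was not tested. Leaving out 1 library gave 0 to 1 higher, and 2 to 3 of the 10 as DEGs, since Ticam2 had a log2 fold change of -0.99 without NC replicate 1 and without RAB6A replicate 3. A pseudocount of 1 also gave 2 DEGs, without Ticam2. With the correction for GC content and length, Ly96 took the place of Ticam2 among the 3. With SFRP2 siRNA, 0 genes passed, against 104 genes, 2 of them targets, by voom, and 1 gene without NC replicate 1, so that leaving out a library gave 0 to 1. Over all alternatives, 4118 to 5864 genes were higher and 4265 to 5070 lower with RAB6A siRNA. Of the pathway and target genes together, 14 were higher and 24 lower, with ranges of 12 to 16 and 21 to 28. Same-numbered libraries shared only a number, with correlations of their deviations between -0.067 and 0.048. With the replicate number as a block, 4649 genes were higher and 4454 lower for RAB6A siRNA and 0 passed for SFRP2 siRNA. This replicate block left the 10 genes at 0 higher, 7 lower and 3 DEGs, and the pathway and target genes at 14 higher and 23 lower. Of the values of single genes under the alternatives, 35 values of the 10 genes moved by more than the spread between NC replicates. Some of these shifts were smaller than the spread between RAB6A replicates, as for Cd180 with voom (-3.44 against -3.38). Of the other pathway and target genes named as DEGs, 1 (Ube2v1 with quantile normalization) no longer passed. The remaining 443 did neither. Depth limits low genes such as Ifnb1, Ube2v1, Sigirr and Tlr4, and differences within 0.1 on the log2 scale were not told apart from scaling. Some larger differences also depended on the processing. Cd14 went from 0.21 to 0.02 with RAB6A siRNA after correction for GC content and length. With SFRP2 siRNA, Cd14 went from -0.15 to -0.01 after quantile normalization.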
